A study of Rattus norvegicus with 24 samples.

Results

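Neurons taken 1 day after spared nerve crush (SNC) were compared with neurons taken 3 days after it. The comparison rests on 475 neurons of 7 dorsal root ganglion (DRG) samples, out of 1433 neurons that passed the same limits in the 24 libraries of the series. The rule took every neuron with at least 500 genes, at least 1000 unique molecular identifiers (UMIs, each standing for 1 copied RNA molecule) and a mitochondrial share under 5%. At SNC 1 d these were samples 13, 16, 17-1 and 17-2 with 94, 96, 24 and 24 neurons, and at SNC 3 d samples 14, 15 and 17-3 with 95, 94 and 48 neurons.

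All rats were male and of the Sprague-Dawley (SD) strain, with no genetic change or drug in the labels. In both groups the tibial and common peroneal branches of the left sciatic nerve had been crushed and the sural branch spared, and L4 and L5 neurons that had taken up a dye from these branches were picked by hand. The files do not carry the dye of a cell, so directly injured and indirectly injured neurons of a sample are pooled in every value. By the labels, 127 of 240 collected cells were directly injured at 1 day and 124 of 240 at 3 days. Their share was 50.0% to 54.2% in 6 samples and 66.7% in sample 17-2.

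Axotomised sensory neurons switch on a growth programme within hours, led by stress-induced transcription factors such as ATF3, JUN and SOX11, and keep it on until their targets are reached again. Immediate early genes respond earlier and more briefly, while peptides, ion channels and structural proteins follow over days. The DRG holds many neuron classes, among them large myelinated neurons rich in neurofilament, peptidergic and nonpeptidergic nociceptors, and itch and cold neurons, and a level summed over all neurons moves with their shares as well as with the RNA of each.

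The summed neurons held 8703837 to 26681964 UMIs per sample at 1 day and 12853101 to 24387479 at 3 days, with medians of 190272 to 306475 UMIs per cell. General neuron markers were present in every sample, with 0 of 8 absent. Markers of macrophages and other immune cells summed to 14.8 to 27.7 CPM (UMIs of a gene scaled to the same library total in every sample) with Cx3cr1 at 0, and those of endothelial cells and fibroblasts to 4.68 to 18.4 CPM with Cldn5 at 0. Markers of satellite glia and Schwann cells were not at 0, and summed to 1549 to 2419 CPM at 1 day and 1514 to 1824 CPM at 3 days (exact permutation test, two-sided p = 0.114, n = 4 and 3). Of the 12 glial markers tested, 11 had the higher mean at 1 day. Their part in the results was not tested. The 7 samples were reverse-transcribed on 5 dates, and only samples 17-1, 17-2 and 17-3 shared one, so day and date cannot be told apart in the other 4. The chi-square statistic over genes, divided by its degrees of freedom and near 1 for copies of one library, was 10.7 between samples 17-1 and 17-2, which shared a date, and 18.4 to 35.8 in the other pairs of the same day. In the 12 pairs of different days it was 17.5 to 34.3, so pairs of different days lay no further apart by it. Sets of different cells exceed counting noise in any case, so this says only that none is a copy of another. The labels give at least 5 rats for each time point but tie none to a sample, so p-values measure the spread between these samples, which may be technical.

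The first question was which genes differed between the days in all labelled neurons. By the quasi-likelihood test of edgeR with Benjamini-Hochberg adjustment, 0 of 14719 genes passed an adjusted p of 0.05 (0.0%). An unadjusted p under 0.05 was reached by 1056 genes (7.17%), and limma voom called 0. DESeq2 called 70 of 14520 genes (0.482%), 51 higher and 19 lower at 1 day. In 1206 genes (8.19%) the 4 samples of 1 day and the 3 of 3 days did not overlap, 688 of them higher at 1 day (4.67%) and 518 lower (3.52%).

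The genes described next are the 15 in each direction with the smallest edgeR p, taken from genes that reached 10 CPM on either day and whose samples did not overlap. There were 528 such genes higher at 1 day and 284 lower. Since they were picked by p and by lack of overlap, their values are a description. Of the 30, DESeq2 called 27, all but Pvalb, Cck and Fgf10, and edgeR called none. CPM values are normalized by the trimmed mean of M-values (TMM) unless stated otherwise.

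Among membrane proteins higher at 1 day, Tspan18, a tetraspanin, stood at 38.7, 49.0, 52.3 and 62.7 CPM in samples 13, 16, 17-1 and 17-2, and at 10.5, 16.2 and 21.9 CPM in samples 14, 15 and 17-3. The lowest sample at 1 day was thus above the highest at 3 days, with a log2 difference (1 day minus 3 days) of 1.65 (SE 0.25, edgeR adjusted p = 0.238). Kcne3, an accessory subunit of potassium channels, was at 43.2, 75.7, 103 and 86.6 CPM at 1 day and at 25.5, 29.3 and 23.5 CPM at 3 days. Its difference was 1.56 (SE 0.26, edgeR adjusted p = 0.238). Kcnv1, an electrically silent potassium channel subunit, was at 28.5, 46.1, 35.6 and 47.1 CPM at 1 day and at 17.5, 18.2 and 14.9 CPM at 3 days, with means of 39.3 ± 8.89 CPM (SD, n = 4) and 16.8 ± 1.76 CPM (n = 3).

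Serpinb2, an inhibitor of plasminogen activators, was at 24.7, 22.8, 42.6 and 36.7 CPM at 1 day and at 13.7, 8.42 and 8.23 CPM at 3 days (log2 difference 1.63, SE 0.28, edgeR adjusted p = 0.238). Procr, the receptor of protein C, averaged 15.5 ± 2.20 against 6.4 ± 0.96 CPM, and F12, coagulation factor XII, 19.9 ± 4.43 against 8.17 ± 1.15 CPM. The matrix proteins Ccn4 (11.6 ± 2.06 against 3.88 ± 0.84 CPM) and Spock1 (101 ± 5.09 against 66.0 ± 3.75 CPM) also stood higher in every sample at 1 day. Of these genes Spock1 was the most abundant, and its difference was the smallest (0.61, SE 0.10).

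Further genes of this side were Ntsr2, a receptor of neurotensin, Fhl2, Slamf1, Ssbp4, Mbp and Rrad, with log2 differences of 0.57 to 4.38. Mbp, which encodes a myelin protein and is on the glial list, was at 69.8, 114, 113 and 75.8 CPM at 1 day and at 37.7, 49.7 and 51.0 CPM at 3 days. Its difference was 1.01 with all cells and 1.18 without clusters 4 and 9 (defined below). Of the glial markers tested it was the only one without overlap, and the part of glial RNA in its value was not tested. Rrad, a small GTPase that restrains calcium channels, had the widest difference, 4.38 (SE 0.90, edgeR adjusted p = 0.375), with 1.31, 12.8, 17.6 and 29.1 CPM at 1 day and 1.16, 0.559 and 0.323 CPM at 3 days. Sample 13 lay just above sample 14, and 3 neurons held at least 50% of the 794 Rrad UMIs of 1 day.

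Of the 15 genes lower at 1 day, Nts, the precursor of the peptide neurotensin, stood at 7.04, 6.17, 3.64 and 3.41 CPM in the samples of 1 day and at 57, 24.1 and 15.0 CPM in those of 3 days. The difference was -2.63 (SE 0.43, edgeR adjusted p = 0.238), and its receptor Ntsr2 differed the other way (1.62, SE 0.28). Cck, the precursor of cholecystokinin, was at 4.69, 5.97, 6.61 and 0.103 CPM at 1 day and at 16.4, 29.3 and 37.0 CPM at 3 days (-2.64, SE 0.64, edgeR adjusted p = 0.493). Fgf10, a secreted growth factor, averaged 2.50 ± 1.61 against 14.2 ± 6.02 CPM. In Cck and Fgf10 sample 17-2 was near 0.

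Pvalb encodes parvalbumin, a calcium buffer of proprioceptive and other large neurons. It was at 10.5, 21.1, 1.98 and 3.30 CPM at 1 day and at 125, 76.1 and 21.2 CPM at 3 days, so that samples 16 and 17-3 all but met (-2.93, SE 0.70, edgeR adjusted p = 0.491). The adhesion and extracellular proteins Cdh11 (9.81 ± 2.29 against 23.4 ± 7.18 CPM) and Sparcl1 (13.9 ± 2.87 against 39.8 ± 21.6 CPM) were on this side too. Adarb1, an enzyme that edits adenosines in RNA, was at 48.3, 47.3, 46.7 and 41.5 CPM at 1 day and at 95.2, 61.7 and 77.1 CPM at 3 days (-0.76, SE 0.15, edgeR adjusted p = 0.346). Vav3, a guanine nucleotide exchange factor, averaged 17.5 ± 3.91 against 36 ± 6.01 CPM. Scn3b, an auxiliary subunit of sodium channels, had the smallest difference of the 15, -0.44 (SE 0.10), with 93.2 ± 5.77 against 127 ± 9.57 CPM. Adgrg2, Snx20, Clec2l, B3galt2, Luzp2 and Syndig1 complete the side, with differences of -1.58 to -0.76.

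**Figure D1:**
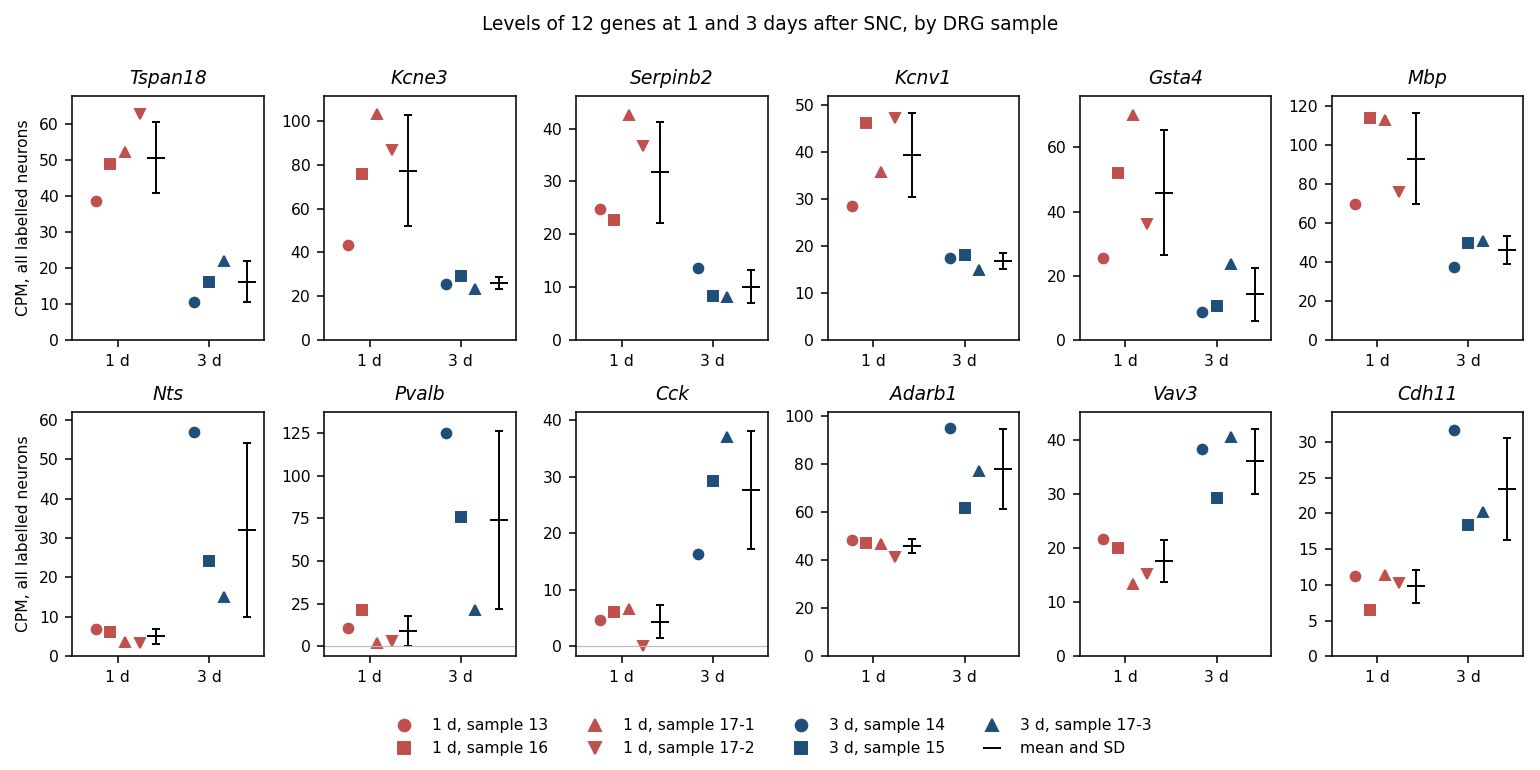
TMM-normalized CPM (linear axes) of 11 of the 30 genes and of Gsta4 (described further on) in all labelled neurons, by DRG sample; red symbols are 1 day (n = 4), blue symbols 3 days (n = 3), and black bars the mean and SD. The days do not overlap in any panel, and in Nts, Pvalb and Cck the samples of 3 days spread far more than those of 1 day.

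On the shared date of reverse transcription alone, samples 17-1 and 17-2 against 17-3, the log2 difference was 1.38 for Tspan18, 2.00 for Kcne3, 2.25 for Serpinb2, -2.06 for Nts, -3.0 for Pvalb and -0.81 for Adarb1. All 30 genes kept their sign there. These samples also served to choose the genes, and a single sample of 3 days allows no test.

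The next question was whether the make-up of the samples differed. The labelled neurons of all groups fell into 10 clusters, named from lists of marker genes, so that the names are rebuilt and can differ from the study's. The lists were chosen with earlier results of these data known, so a leading gene that is on a list is no check of the name. Cluster 0 was PEP1-like (peptidergic; leading genes Cck, Kit and Arg1), cluster 2 PEP3-like (Kcng1, Gpx3), clusters 3 (Shox2, Ntng1) and 4 (S100a16, Nppa, Kcnv1) NF-like (large neurons rich in neurofilament), clusters 5 and 7 SST-like (itch; Il31ra, Sst), cluster 6 NP-like (nonpeptidergic; Mrgprb4) and cluster 9 TRPM8-like (cold-sensing; Foxp2, Penk, Trpm8). Cluster 1 (Ctla2a, Anxa1) and cluster 8 stayed unnamed, the second because 8 of 13 glial markers were high in it. Several named clusters also met a second list. Of 8 PEP1 markers 5 were high in cluster 0 and 5 in cluster 2, where 7 of 7 PEP3 markers were high. NF markers were high for 9 of 12 in cluster 3 and 6 of 12 in cluster 4. Cluster 3 also met 4 of 7 markers of low-threshold C-fibres, and cluster 4 met 3 of 8 of endothelial cells and fibroblasts. Cck, Kcnv1 and Adgrg2, which lead clusters, are among the 30 genes above, although edgeR called none of them.

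TRPM8-like neurons made up 1.06%, 0%, 0% and 4.17% of samples 13, 16, 17-1 and 17-2, and 6.32%, 5.32% and 6.25% of samples 14, 15 and 17-3. That was 2 neurons at 1 day and 14 at 3 days. The days did not overlap, and the exact two-sided permutation p of 0.0571 is the smallest that 4 against 3 samples can give (adjusted p = 0.381 over 10 clusters). NF-like cluster 4 held 8.51%, 15.6%, 16.7% and 25.0% of the neurons at 1 day and 4.21%, 3.19% and 16.7% at 3 days (exact permutation p = 0.229). NF-like cluster 3 lay the other way, with 4.45% ± 3.84 at 1 day and 9.47% ± 0.95 at 3 days (exact permutation p = 0.114). The NF-like class as a whole thus took 20.9% ± 7.51 and 17.5% ± 8.37, but 33 of its 47 neurons at 1 day were of cluster 4, and 22 of its 37 neurons at 3 days were of cluster 3. PEP1-like neurons took 23.6% ± 3.93 and 22.4% ± 2.50. In samples 17-1 and 17-2, with 24 neurons each, 1 neuron is 4.17% of the sample.

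**Figure D2:**
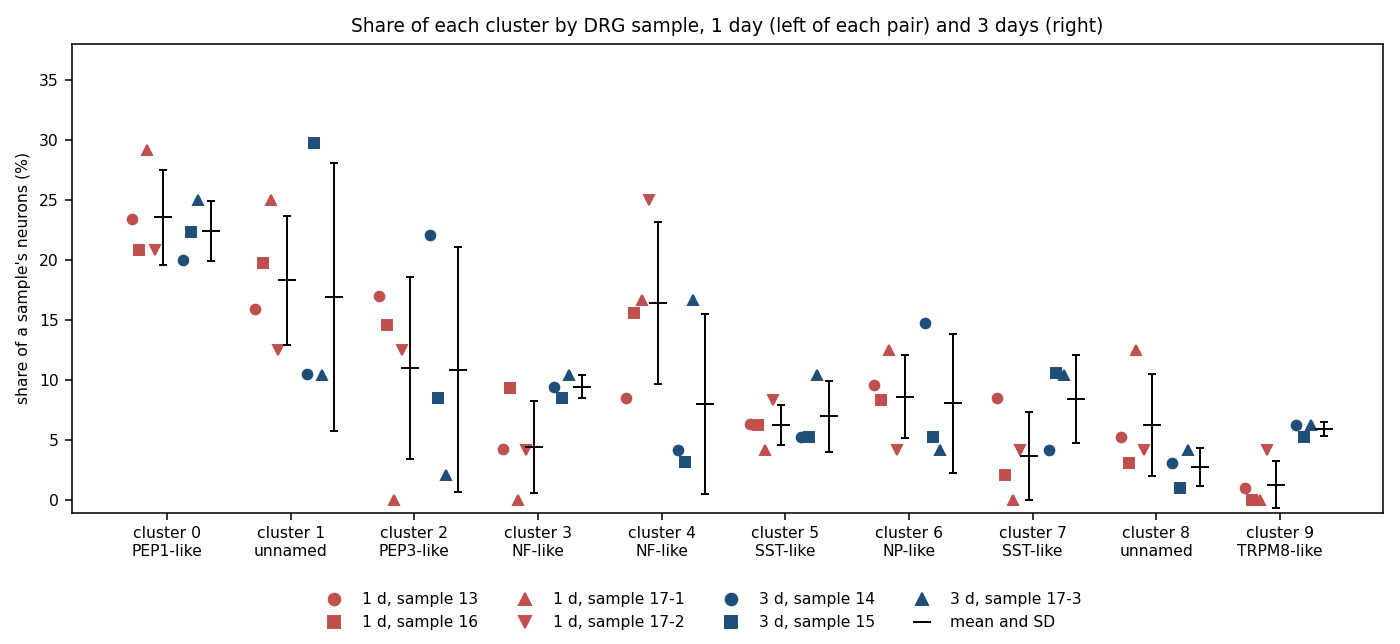
Share of each sample's neurons in each of the 10 clusters (percent, linear axis), with 1 day on the left of each pair and 3 days on the right; symbols are DRG samples and black bars the mean and SD. Only in cluster 9 (TRPM8-like) do the days not overlap, at 0% to 4.17% against 5.32% to 6.25%.

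To set these shares beside the gene differences, the level of each gene in each cluster was taken from sham and 7-day neurons, which the comparison does not use, and weighted by the share of UMIs that the cluster gave to each sample. The clusters themselves were drawn from all labelled neurons, those of 1 and 3 days among them. A gene that leads a cluster can help to place neurons in it, so for such genes a close match is partly built in. For Kcnv1, which leads cluster 4, the shares alone gave a log2 difference of 1.15 where 1.22 was observed, and without the cells of clusters 4 and 9 the difference was -0.08. Its level was far lower outside cluster 4, so leaving that cluster out was bound to shrink the difference. Pooled within cluster 4, without TMM, Kcnv1 was at 138 CPM at 1 day and 141 CPM at 3 days. For Adgrg2, which leads cluster 3, the shares gave -0.96 where -1.09 was observed. For Tspan18 and Kcne3 they gave 0.68 and 0.63 where 1.65 and 1.56 were observed. For Procr, Slamf1, Ntsr2, Fgf10 and Cck they gave -0.09, -0.05, 0.02, -0.10 and 0.38, far from the observed 1.28, 1.33, 1.62, -2.46 and -2.64. Over the 30 genes the shares gave the observed sign in 27 and more than 50% of the observed size in 7. The 30 were picked on these same samples, and the same counts over all genes tested are not given here. These counts are therefore a description, and the part of the shares in the differences was not tested. Without clusters 4 and 9 the sign was the same in 29, with Kcnv1 the exception.

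**Figure D3:**
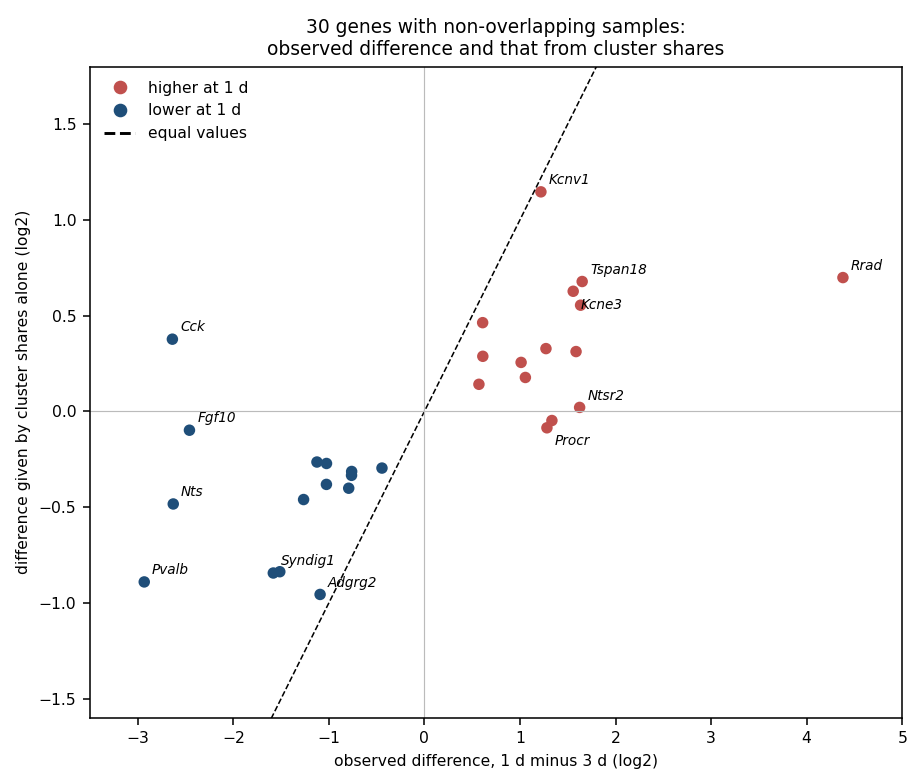
Observed log2 difference (1 day minus 3 days, horizontal axis) of the 30 genes and the log2 difference that cluster shares alone give from cluster levels in sham and 7-day neurons (vertical axis); red points are higher and blue points lower at 1 day, and the dashed line marks equal values. Kcnv1 and Adgrg2, which lead clusters, lie close to the line, while Nts, Pvalb, Cck and Rrad lie far from it.

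Within NF-like neurons edgeR called 2 of 12220 genes (0.0164%), Cd9 and Tspan18, both higher at 1 day. Cd9, a tetraspanin that the study took up, was at 335, 236, 240 and 162 CPM in samples 13, 16, 17-1 and 17-2 and at 42.1, 26.0 and 19.5 CPM in samples 14, 15 and 17-3. No sample of 1 day came near those of 3 days, with a log2 difference of 3.04 (SE 0.30, edgeR adjusted p = 0.00969) and of 3.30 on the shared date. Without sample 15 the edgeR adjusted p was 0.105. In cluster 4 alone, whose neurons were most of the class at 1 day, Cd9 was at 525, 357, 232 and 184 CPM at 1 day and at 129, 21.2 and 33.5 CPM at 3 days, again without overlap (2.48, SE 0.57, edgeR adjusted p = 0.481). In cluster 3 the pooled level was 29.7 CPM over 14 neurons and 24.4 CPM over 22 neurons, without TMM. The values of the days were thus far apart in cluster 4 and close in cluster 3, and whether the clusters differ in this was not tested.

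In other neurons the direction of Cd9 varied, and edgeR called it in none of the other classes tested. In PEP1-like neurons it was at 390, 347, 527 and 432 CPM at 1 day and at 255, 305 and 196 CPM at 3 days (0.74, SE 0.17, edgeR adjusted p = 0.771). In the unnamed cluster 1 it was at 71.6, 63.6, 55.4 and 13.7 CPM against 20.2, 14.9 and 4.8 CPM (1.89, SE 0.43, edgeR adjusted p = 0.290), where sample 17-2 fell among those of 3 days. PEP3-like neurons held the highest Cd9, 822 CPM pooled over 33 neurons at 1 day and 846 CPM over 30 at 3 days, and in NP-like neurons the pooled level was the lower one at 1 day (27.9 against 56.1 CPM, both without TMM). In SST-like cluster 5 it was also the lower one at 1 day, 29.1 against 47.5 CPM over 15 neurons each, while in SST-like cluster 7 it was the higher one, 52.9 against 11.7 CPM. Summed over all neurons Cd9 overlapped between the days, at 317, 352, 296 and 218 CPM against 244, 162 and 60.9 CPM (0.92, SE 0.36, edgeR adjusted p = 0.675).

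Tspan18 in NF-like neurons was at 99.7, 101.7, 120 and 125 CPM at 1 day and at 30.1, 41.1 and 43.8 CPM at 3 days (1.54, SE 0.19, edgeR adjusted p = 0.0331). The call was lost without sample 14, 15, 17-1 or 17-2, with adjusted p of 0.157, 0.105, 0.0775 and 0.170. In cluster 4 alone it was at 118, 147, 116 and 128 CPM against 159, 153 and 90.2 CPM, and the difference was -0.06 (SE 0.22, edgeR adjusted p = 0.939). In cluster 3, at a lower level, the samples with at least 3 neurons gave 69.9 and 20.1 CPM at 1 day and 10.2, 5.48 and 3.24 CPM at 3 days, without TMM. Cluster 4 thus held the higher level on both days and showed no difference of the size seen in the class. Pooled over neurons, cluster 3 was at 48.4 CPM at 1 day and 7.16 CPM at 3 days, without TMM. Neurons of cluster 4 were 33 of 47 in the class at 1 day and 15 of 37 at 3 days. By sample they were from 15 of 24 (sample 16) to 4 of 4 (17-1) at 1 day. At 3 days they were from 3 of 11 (sample 15) to 8 of 13 (17-3). The part of this make-up in the call was not tested.

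In cluster 1, which was added to the classes after its values had been seen, edgeR called 1 of 9668 genes (0.0103%), Nts. It was at 36.3, 22.3, 14.2 and 19.6 CPM in samples 13, 16, 17-1 and 17-2 and at 132, 80.5 and 91.1 CPM in samples 14, 15 and 17-3, lower in every sample of 1 day (log2 difference -2.10, SE 0.29, edgeR adjusted p = 0.0174). Without sample 14 the adjusted p was 0.200, and without sample 17-3 it was 0.0871. Cells with an Nts UMI were 51.2% of cluster 1 at 1 day and 69.8% at 3 days. In classes with less Nts the share was also higher at 3 days, with 3.70% and 21.2% of PEP1-like, 9.09% and 40% of PEP3-like and 28.6% and 66.7% of NP-like cells, but not in SST-like cluster 5, with 20.0% and 13.3%. The part of RNA from other cells in the call was not tested. TRPM8-like neurons held the highest Nts of 3 days, 552, 60.1 and 131 CPM in the 6, 5 and 3 such neurons of samples 14, 15 and 17-3, without TMM, and the 2 such neurons of 1 day held none. Without clusters 4 and 9 the difference over all neurons was -2.05 in place of -2.63.

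In PEP1-like neurons 0 of 10830 genes passed in edgeR (0.0%; 453 with an unadjusted p under 0.05; DESeq2 called 7), and in SST-like neurons 0 of 9976 (0.0%; 314 with an unadjusted p under 0.05; DESeq2 called 1). Cluster 4 alone, also added after its values had been seen, gave 0 of 10840 (0.0%; 1028 with an unadjusted p under 0.05; DESeq2 called 22). These sums rest on 3 to 28 neurons per sample. In NF-like neurons DESeq2 called 147 genes and in cluster 1 it called 14.

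Sequences upstream of the start of Cd9, Tspan18 and Nts, the genes called within a class, are shown from RefSeq (GRCr8, while the files used Rnor_6.0), 5′ to 3′ on the gene's strand, as the 250 bases before the start. The letters searched were TGANTCA, the site of AP-1 dimers of JUN and FOS proteins, and TGACGTCA, the cyclic AMP response element (CRE) that CREB, CREM and ATF proteins bind. Both read the same on either strand, and matches are in capitals. Cd9 lies at chr4:159975359-159975608 on the minus strand, Tspan18 at chr3:99755271-99755520 on the minus strand, and Nts at chr7:39460889-39461138 on the minus strand.
Cd9: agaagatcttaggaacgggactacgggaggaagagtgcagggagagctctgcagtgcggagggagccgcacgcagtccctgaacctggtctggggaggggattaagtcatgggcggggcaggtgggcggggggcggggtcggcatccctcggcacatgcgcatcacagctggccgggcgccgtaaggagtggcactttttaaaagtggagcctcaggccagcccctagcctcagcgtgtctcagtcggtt
Tspan18: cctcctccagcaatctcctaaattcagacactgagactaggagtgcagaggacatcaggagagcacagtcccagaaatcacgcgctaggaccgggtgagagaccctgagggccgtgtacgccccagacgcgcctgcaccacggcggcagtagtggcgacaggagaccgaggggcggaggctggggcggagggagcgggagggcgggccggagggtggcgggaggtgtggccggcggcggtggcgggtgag
Nts: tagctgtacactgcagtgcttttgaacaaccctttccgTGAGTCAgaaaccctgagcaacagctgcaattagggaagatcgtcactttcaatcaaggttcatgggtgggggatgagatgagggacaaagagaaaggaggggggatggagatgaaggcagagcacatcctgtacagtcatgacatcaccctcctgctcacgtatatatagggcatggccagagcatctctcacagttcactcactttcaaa
Nts holds 1 AP-1 match, from base -212 to base -206 counted back from the start, and the windows of Cd9 and Tspan18 hold neither motif. Of the 27457 genes with a promoter in the table, 6.99% hold the AP-1 letters and 1.78% the CRE letters in the same 250 bases before at least 1 start. Of the 30 genes, 21 have a promoter in the table, of which 4 hold the AP-1 letters (Spock1, Serpinb2, Procr and Nts) and 0 the CRE letters. A match is a description of the letters and says nothing of binding.

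**Figure D4:**
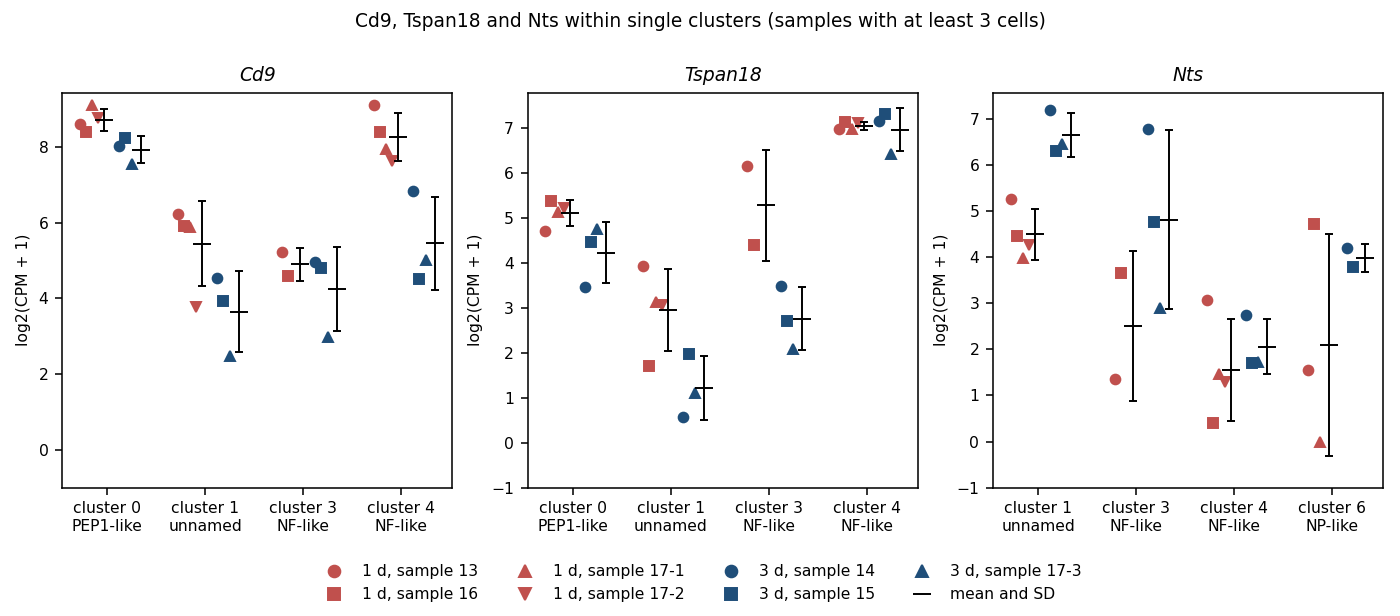
log2(CPM + 1), without TMM, of Cd9, Tspan18 and Nts in single clusters by DRG sample, for samples with at least 3 neurons of the cluster; red symbols are 1 day, blue symbols 3 days, and black bars the mean and SD. Cd9 is apart between the days in cluster 4 and not in cluster 3, Tspan18 is level in cluster 4, and Nts is apart in cluster 1.

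UMIs of Pvalb were also found in neurons that should lack it. In PEP3-like neurons 18.2% of cells had a Pvalb UMI at 1 day and 83.3% at 3 days, and in NP-like neurons 19.0% and 90.5%, at median depths of 185835 and 284868 UMIs per cell over all groups. Sample 14, with the highest Pvalb in NF-like cluster 3 (467 CPM, against 355 and 98.3 CPM in samples 15 and 17-3), also had the highest level in PEP3-like neurons (25.6 CPM), in NP-like neurons (29.7 CPM) and in PEP1-like neurons (24.2 CPM). At 1 day Pvalb in cluster 3 was at 51.8 and 122 CPM in samples 13 and 16, so that samples 16 and 17-3 overlapped there. In those 2 samples it was at 0.262 and 1.90 CPM in PEP3-like neurons and at 1.15 and 0.497 CPM in NP-like neurons, the second pair in the other order. The part of RNA from other cells in these values was not tested. After each cell was thinned to 20000 UMIs, 0% to 6.82% of neurons per sample had a Pvalb UMI at 1 day and 8.51% to 34.1% at 3 days.

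Gsta4, a glutathione transferase that detoxifies lipid peroxidation products, had the higher pooled level at 1 day in each cluster. Over all neurons it was at 25.6, 52.0, 70.0 and 36.1 CPM at 1 day and at 8.67, 10.6 and 23.8 CPM at 3 days (1.69, SE 0.41, edgeR adjusted p = 0.491), and cluster shares alone gave -0.09. The pooled level without TMM was 31.6 against 9.48 CPM in PEP1-like neurons, 53.7 against 7.68 CPM in cluster 1, 47.3 against 9.82 CPM in cluster 3, 41.9 against 10.5 CPM in cluster 4 and 35.2 against 9.74 CPM in NP-like neurons, and it was the higher one at 1 day in all 10 clusters. Cluster 9 had only 2 neurons at 1 day, and in cluster 7 the pooled levels were closer, 30.2 against 21.2 CPM. Single samples overlapped within some clusters. In PEP1-like neurons sample 13 was at 13.5 CPM and sample 17-3 at 14.1 CPM, without TMM. In NF-like neurons the fitted difference was 2.09 (SE 0.35, edgeR adjusted p = 0.127). Of the thinned neurons, 33.0%, 47.8%, 45.8% and 50.0% had a Gsta4 UMI in the samples of 1 day and 12.5%, 13.6% and 29.8% in those of 3 days (exact permutation p = 0.0571, adjusted p = 0.384 over 94 genes).

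The pathway lists were read by their counts and their median, since no member of any of the 17 lists passed in edgeR. Beside them stand the 14719 genes tested, of which 7359 had the higher level at 1 day, with 8.19% not overlapping between the days. Immediate early genes had the largest median. Of 26 listed, 22 passed the filter on low counts and 18 of these were higher at 1 day, with a median log2 difference of 0.45 and a range of 0.24 to 0.54 over 11 alternatives. Of the 22, 3 did not overlap (13.6%), all higher at 1 day. Ier3, a stress-induced regulator of survival, was at 70.5, 45.0, 67.7 and 59.6 CPM against 39.4, 26.3 and 40.03 CPM (0.78, SE 0.20, edgeR adjusted p = 0.546; DESeq2 adjusted p = 0.0475). Maff, a small MAF factor, was at 13.5, 6.09, 14.7 and 10.3 CPM against 6.03, 4.30 and 4.36 CPM (1.18, SE 0.33), and Fosl1, a FOS family member, at 15.0, 13.7, 25.1 and 11.4 CPM against 5.67, 7.74 and 11.1 CPM (1.00, SE 0.32). In Maff and Fosl1 the nearest samples of the days all but met. The sum of the list overlapped, at 781 to 1133 CPM against 681 to 902 CPM.

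Of 23 regeneration transcription factors tested, 15 were higher at 1 day (median 0.10) and 3 did not overlap, Crem, Nfil3 and Ets2. Crem, whose short form ICER is a CRE-driven repressor, was at 144, 190, 191 and 143 CPM against 120, 135 and 112 CPM (0.44, SE 0.14, edgeR adjusted p = 0.630). Of 28 amino acid and endoplasmic reticulum stress genes 4 did not overlap (14.3%). Among these, Ppp1r15a, which restarts translation after stress, was at 116, 130, 146 and 99.2 CPM against 90.2, 82.0 and 84.0 CPM (0.52, SE 0.14, edgeR adjusted p = 0.552), while the chaperone Hsp90b1 lay the other way at 240 ± 28.6 against 299 ± 11.2 CPM (-0.32, SE 0.11).

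Crem, Maff and Ppp1r15a, which stood higher at 1 day on different lists, each hold the CRE letters close to the start. Of all genes 1.78% hold them within 250 bases, a share that cannot be weighed against picked genes. The last 100 bases before the start are shown with the CRE in capitals (RefSeq, GRCr8), for Maff at chr7:112792687-112792786 on the plus strand, for Ppp1r15a at chr1:105139597-105139696 on the minus strand, and for 2 of the 3 starts of Crem, at chr17:58984697-58984796 and chr17:58985390-58985489 on the plus strand.
Maff: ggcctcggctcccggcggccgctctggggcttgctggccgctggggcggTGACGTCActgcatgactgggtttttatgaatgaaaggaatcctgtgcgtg
Ppp1r15a: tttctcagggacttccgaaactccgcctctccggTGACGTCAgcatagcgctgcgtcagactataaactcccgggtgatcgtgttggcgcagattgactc
Crem, first start: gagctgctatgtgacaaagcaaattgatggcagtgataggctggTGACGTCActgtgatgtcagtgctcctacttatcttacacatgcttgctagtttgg
Crem, second start: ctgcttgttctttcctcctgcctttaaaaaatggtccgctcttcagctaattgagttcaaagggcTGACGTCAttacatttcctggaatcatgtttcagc
These were picked after their values and letters had been seen. Of the 67 named genes with a promoter in the table, 4 hold the CRE letters and 11 the AP-1 letters. The fourth CRE holder is Rpl26, from the ribosomal list, on which 62 of 64 genes were lower at 1 day. Ier3, Fosl1, Nfil3 and Ets2, also higher at 1 day without overlap, are not among the 4. Whether the CRE has a part in these values was not tested.

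Genes of growth and injury effectors were level as a group, with 18 of 37 higher at 1 day and a median of -0.01. Atf3, the leading injury factor, was at 451, 674, 546 and 445 CPM at 1 day and at 433, 548 and 585 CPM at 3 days (0.02, SE 0.16, edgeR adjusted p = 0.982). Jun (-0.08, SE 0.12), Sox11 (-0.09, SE 0.21), Sprr1a (0.16, SE 0.21), Ecel1 (0.12, SE 0.16) and Gap43 (-0.19, SE 0.15) all overlapped between the days. Tnfrsf12a, the receptor of TWEAK, was the effector with the smallest p, at 74.2 ± 19.0 against 49.3 ± 7.72 CPM without overlap (0.59, SE 0.19, edgeR adjusted p = 0.630). Adcyap1, which the study took up, encodes the precursor of the peptide PACAP. It was at 500, 583, 425 and 434 CPM at 1 day and at 556, 452 and 340 CPM at 3 days (0.11, SE 0.17, edgeR adjusted p = 0.870). A p of this size does not show that the days were alike, and over the alternatives the difference in Adcyap1 ran from -0.05 to 0.34.

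Of 20 neuropeptides tested, 10 were higher and 10 lower at 1 day, and Nts and Cck did not overlap. Nppb, the peptide of itch neurons, was at 63.1, 25.0, 12.5 and 18.0 CPM against 41.6, 105 and 142 CPM (-1.67, SE 0.51, edgeR adjusted p = 0.630), and Sst at 69.9 ± 57.9 against 172 ± 124 CPM. The shares of clusters alone gave -0.99 for Nppb and -1.01 for Sst, whose clusters 5 and 7 took 6.28% and 3.69% of the neurons at 1 day and 7.00% and 8.42% at 3 days. Osmr, a cytokine receptor of the same neurons, was at 23.0 ± 20.1 against 60.6 ± 27.5 CPM (-1.36, SE 0.58). Galanin, the injury peptide encoded by Gal, was at 724, 1079, 766 and 521 CPM against 841, 1392 and 975 CPM (-0.47, SE 0.23, edgeR adjusted p = 0.701), and Tac1 at 933 ± 259 against 851 ± 241 CPM. None of these genes passed in edgeR over all neurons, and all but Nts and Cck overlapped.

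Nociceptor channels and receptors gave 14 higher and 22 lower of 36 (median -0.08), with Trpv1 at 66.3 ± 5.72 against 68.0 ± 13.8 CPM and Scn10a at 148 ± 13.6 against 149 ± 15.5 CPM. Kcnd1, a potassium channel, was the only one of the 36 without overlap, at 161 ± 21.0 against 129 ± 5.65 CPM (0.32, SE 0.12). Of 25 antioxidant genes 3 did not overlap (12.0%), all higher at 1 day, among them Gsta4 and Gpx3, which encodes an extracellular glutathione peroxidase and was at 53.1, 45.6, 88.3 and 81.0 CPM against 37.4, 40.4 and 12.4 CPM (1.14, SE 0.37, edgeR adjusted p = 0.630). Of 23 genes of synaptic release 3 did not overlap (13.0%), all lower at 1 day, among them the calcium sensor Syt1 at 245 ± 18.7 against 300 ± 18.4 CPM (-0.30, SE 0.10). Of 23 neurofilaments and tubulins 17 were lower at 1 day, and 2 did not overlap (8.70%), 1 in each direction. Ina, a neuronal intermediate filament, was at 230, 205, 246 and 184 CPM against 318, 281 and 278 CPM (-0.44, SE 0.12), while Tubb6, a beta-tubulin, was at 187, 223, 231 and 188 CPM against 164, 184 and 176 CPM (0.25, SE 0.11, edgeR adjusted p = 0.694). Nefh was at 732 ± 82.8 against 777 ± 73.1 CPM.

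Genes of protein and energy production lay slightly lower at 1 day. Of 64 ribosomal protein genes 62 were lower (median -0.17, from -0.26 to -0.11 over 11 alternatives), of 91 nuclear genes of the respiratory chain 81 (median -0.13, from -0.21 to -0.08), and of 13 mitochondrial messenger RNAs 11 (median -0.16, from -0.22 to -0.09). The sums overlapped between the days, for ribosomal proteins at 22774 to 30397 CPM against 27012 to 30946 CPM, and few members stood apart, 1 of 64 (1.56%), 2 of 91 (2.20%) and 1 of 13 (7.69%) not overlapping. The genes of these lists move together from sample to sample, so the number of members on one side is not a number of independent observations. The remaining lists had medians between -0.09 and 0.03, with 12 of 24 cholesterol synthesis genes, 10 of 24 glycolysis and hypoxia genes, 6 of 17 heat shock chaperones, 11 of 20 STAT3 and interferon genes and 10 of 24 growth factor and cytokine receptors higher at 1 day.

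**Figure D5:**
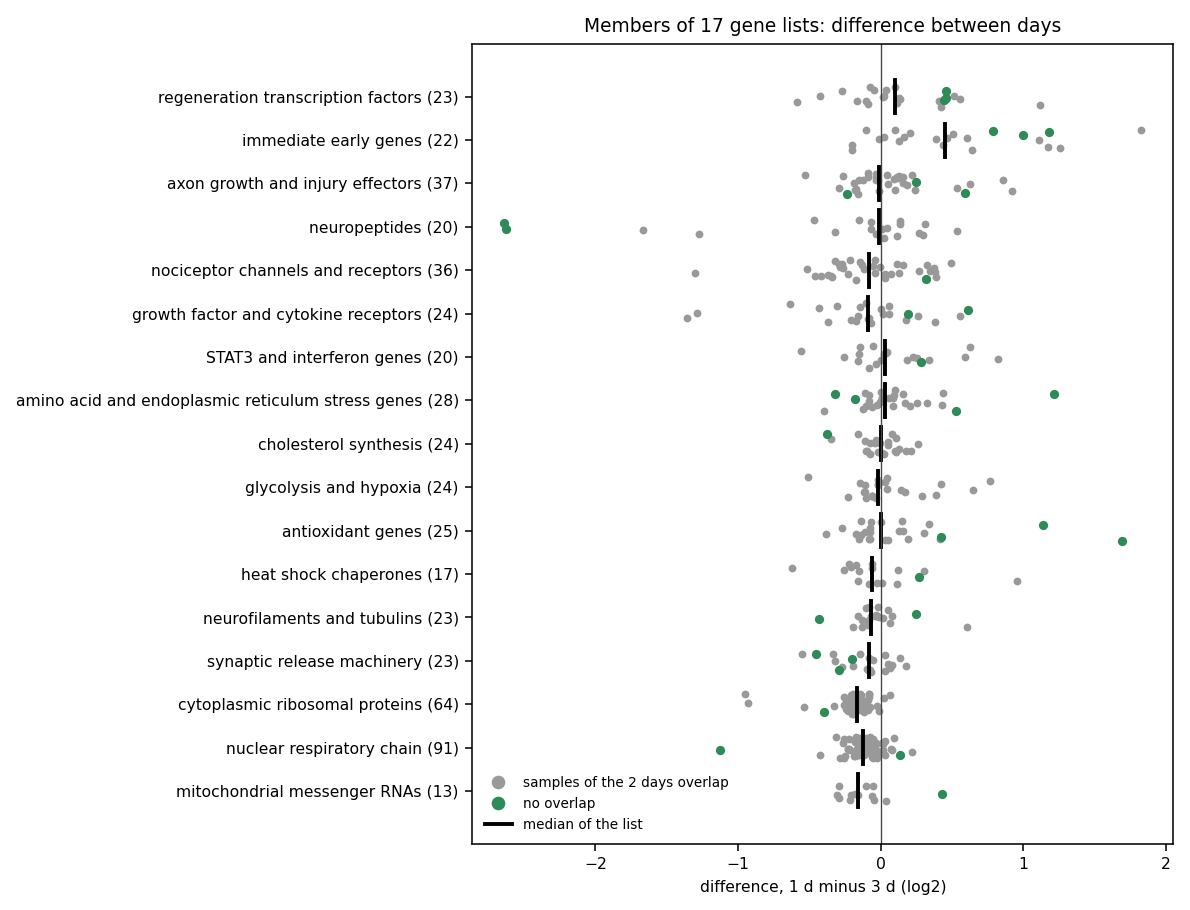
log2 difference (1 day minus 3 days) of each tested member of the 17 gene lists, with the number of members in brackets; green points are members whose samples do not overlap between the days, grey points the others, and the black bar is the median of the list. Immediate early genes have the highest median (0.45), and ribosomal, respiratory chain and mitochondrial genes lie close together just below 0.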

How the data were processed

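Single DRG neurons were sequenced by a modified Smart-seq2 protocol with UMIs. The authors split reads by cell barcode, aligned them to Rnor_6.0 with STAR and made the gene table with featureCounts, SAMtools and UMI-tools, tools that the submitters' processing notes also name. The deposited values are whole UMI counts per gene and cell, without normalization. Here counts were summed per DRG sample and tested with edgeR 4.0.16 (TMM, filterByExpr, quasi-likelihood, Benjamini-Hochberg at 0.05), with DESeq2 1.42.0 and limma 3.58.1 as alternatives. Clusters came from Seurat 5.3.0 (2000 variable genes, 40 principal components, resolution 0.5), and classes were tested in samples with at least 3 such neurons. No doublet caller was run on the hand-picked cells. Shares were compared by exact two-sided permutation tests in SciPy 1.17.1. Named genes were the 15 with the smallest p per direction (at least 10 CPM, no overlap), the 3 with the smallest p of each list, and 18 genes named by the study or by earlier results of these data; others were chosen after their values were seen. Members, lists and tests were chosen with earlier results of these data known. On simulated counts for this comparison, with 200 of 14719 genes changed, edgeR made 124 calls, 4 of them false, and found 48.5%, 57.1% and 75.0% of genes changed by 1, 1.5 and 2 on the log2 scale. CPM describe shares of a sample's RNA. Alternatives changed the test, normalization, filters, samples, cells and clustering. Results for a few genes are not reported here.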

Additional observations from a re-analysis of the deposited data

Results flagged for a closer look

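Among the 4 samples of 1 day, 56 values (of named genes and shares of classes) were searched for a sample lying far from the others, which chance gives about 1 time in 20. There were 2. Fgf10 was at 0.103 CPM in sample 17-2, against 3.08 to 3.51 CPM in the others. Nefh, the heavy neurofilament, was at 855 CPM in sample 17-2, against 682 to 702 CPM in the others. Sample 17-2 is also the one with 66.7% directly injured neurons and with the highest share of NF-like cluster 4 (25.0%), and the part of either in these values was not tested.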

How the results depend on the processing

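In all labelled neurons the 0 genes called by edgeR became 70 with DESeq2, 33 with no filter on low counts and 1 (Nts) with cells thinned to 20000 UMIs, and 0 to 5 when 1 sample was left out, the 5 (among them Kcne3, Rrad and Kcnv1) without sample 13; the cause was not tested. The other alternatives gave 0. Among these were the fit of all 16 labelled samples (439 genes with an unadjusted p under 0.05), the DESeq2 size factors (1070), the fit without cluster 8 (1011) and the fit without clusters 4 and 9 (803). No paired analysis was possible because the labels give no replicate numbers that the days share; limma voom with the dates as a block (correlation 0.159) called 0 genes, as did limma voom without it. NF-like neurons gave 147 genes with DESeq2, 1 with at least 5 cells per sample and 0 to 28 with 1 sample left out (0 without sample 15, 28 without sample 17-3). The numbers were 7 and 0 to 2 for PEP1-like, 1 and 0 to 1 for SST-like and 22 and 0 for cluster 4. Cluster 1 gave 14 with DESeq2, 2 with at least 5 cells and 0 to 4 with 1 sample left out (0 without sample 14 or 17-3). The share of PEP3-like neurons changed sign with 20 principal components (-0.485 percentage points) and at resolution 0.8 (-0.224), and ran from -4.28 to 5.73 with 1 sample left out. Shares of NP-like (-1.38 to 3.90), PEP1-like (-0.757 to 2.39) and cluster 1 neurons (-1.84 to 7.84) also crossed 0. Of 1971 log2 differences of 94 genes under alternatives, 34 changed sign, in 12 genes, and 53 passed. Without clusters 4 and 9 the genes that changed sign were Kcnv1 (-0.076), Ifitm3 (-0.21), Trpv1 (0.23), Scn10a (0.11), Jun (0.077) and Sox11 (0.062). On the shared date they were Asic3 (-0.029), Trpv1 (0.12), Scn10a (0.15), Atf3 (-0.25) and Sox11 (0.19), and with the mean of per-cell CPM the log2 difference of Trpv1 (0.063), Scn10a (0.11), Jun (0.012) and Sox11 (0.060). The log2 difference of Scn10a was 0.00075 with all 16 samples, 0.00029 with samples 17-1 and 17-2 merged and 0.0063 with the dates as a block. With 1 sample left out, Adcyap1 ran from -0.054 to 0.30, Tac1 from -0.086 to 0.29, Trpv1 from -0.12 to 0.15, Scn10a from -0.083 to 0.075, Atf3 from -0.12 to 0.11, Sprr1a from -0.053 to 0.28, Jun from -0.13 to 0.043, Sox11 from -0.18 to 0.093 and Ecel1 from -0.0095 to 0.21. The limit of 1% glial UMIs removed 0 cells, so cluster 8 was left out in its place, and this, the clusters 4 and 9 setting, limma voom without a block and the tests of clusters 1 and 4 were chosen after seeing the data. Samples 17-1 and 17-2 hold 24 neurons each, which limits the precision of their shares and class sums. The gene fit that merged these samples was made for all neurons and not within classes.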

Other observations

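Set beside the 4 sham and 5 SNC 7 d samples (CPM without TMM, with dates of reverse transcription not matched, so given as values only), several of the genes had their highest mean at 1 day. In the order of sham, 1, 3 and 7 days, Gsta4 averaged 8.78 ± 9.42, 46.5 ± 19.9, 14.0 ± 7.78 and 23.4 ± 7.38 CPM. Serpinb2 averaged 7.04 ± 5.14, 32.5 ± 11.1, 10.0 ± 3.50 and 8.22 ± 4.13 CPM, and Tspan18 23.3 ± 4.99, 51.5 ± 11.8, 15.8 ± 5.16 and 22.3 ± 3.19 CPM. Crem averaged 107 ± 19.8, 169 ± 24.2, 120 ± 11.2 and 127 ± 13.5 CPM. Others had their lowest mean at 1 day, with 9.54 ± 5.63, 5.08 ± 1.70, 32.0 ± 23.3 and 18.1 ± 9.88 CPM for Nts and 13.9 ± 15.5, 4.34 ± 2.95, 26.9 ± 9.51 and 37.4 ± 26.8 CPM for Cck. The spread within sham and within 7 days was wide for Cck and narrow for Tspan18.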
